A study of Mus musculus with 2 samples.

Results

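The Dlx genes are the 6 mouse homeobox genes related to Distal-less of the fly, and they lie in the genome as 3 pairs, Dlx1 with Dlx2, Dlx3 with Dlx4, and Dlx5 with Dlx6. They were taken by gene symbol from an RNA-seq table of distal forelimbs, where they account for 17 of 64053 transcripts and 6 of 23157 genes. RNA was measured at E12.5 in the distal forelimb of C57Bl6CBAF1 mice, in 1 wild-type library and 1 library of the allele HoxD Inv(TpSB1-Itga6), in which 2.4 Mb of chromosome 2 are turned around. The design text gives 3 pairs of forelimbs as the source, without saying whether this is per library, and the methods of the study give the mutant embryos as homozygous. With a single library of each genotype the differences have no replicate check, and the values of single embryos cannot be seen in pooled limbs.

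Dlx proteins bind DNA through the homeodomain and act as transcription factors. In each pair the genes are transcribed towards each other, share enhancers, and are often expressed in the same cells. In the limb bud, Dlx genes are best known from the apical ectodermal ridge (AER), the strip of ectoderm at the tip that keeps the limb growing out, and loss of Dlx5 together with Dlx6 leaves limbs with a central cleft, the split hand/foot malformation. Outside the limb, Dlx1 and Dlx2 are required for GABAergic interneurons of the forebrain, Dlx3 for hair, teeth and placenta, and Dlx5 and Dlx6 for jaws and bone, whereas the role of Dlx4 is less well known.

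The DNA that makes these genes one family is the homeobox. It was read from the GENCODE M21 transcripts on GRCm38, another build than the NCBIM37 used by the authors for mapping. The homeobox of 180 bases was split by an intron after base 132 in all 6 genes, and its second part of 48 bases, which encodes most of the helix that contacts DNA, is given 5′ to 3′ on the coding strand to show how far reads of the different genes can be told apart. Capitals mark the 26 bases that all 6 genes share.
Dlx1: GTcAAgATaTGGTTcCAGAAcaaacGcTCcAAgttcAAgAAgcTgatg
Dlx2: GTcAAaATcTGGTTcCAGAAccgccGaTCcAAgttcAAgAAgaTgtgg
Dlx3: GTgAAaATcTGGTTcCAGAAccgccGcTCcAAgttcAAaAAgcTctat
Dlx4: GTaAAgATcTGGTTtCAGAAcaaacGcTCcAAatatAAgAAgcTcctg
Dlx5: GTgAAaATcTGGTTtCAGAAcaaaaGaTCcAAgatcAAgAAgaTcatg
Dlx6: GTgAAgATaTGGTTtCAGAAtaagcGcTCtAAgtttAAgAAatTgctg

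These coding exon stretches lie at chr2:71532264-71532311 (plus strand) for Dlx1, chr2:71544877-71544924 (minus) for Dlx2, chr11:95123409-95123456 (plus) for Dlx3, chr11:95141422-95141469 (minus) for Dlx4, chr6:6878441-6878488 (minus) for Dlx5 and chr6:6867041-6867088 (plus) for Dlx6. Over the whole homeobox, 92 of 180 bases were shared by all 6 genes. Identity between any 2 genes ranged from 66.1% (Dlx3 and Dlx6) to 81.7% (Dlx2 and Dlx3), and was 73.9% within the Dlx1/Dlx2 pair, 71.7% within Dlx3/Dlx4 and 73.3% within Dlx5/Dlx6. The longest run of bases common to the transcripts of any 2 Dlx genes was 23 bases on the same strand. With 1 transcript read on the opposite strand it was 36 bases (Dlx1 and Dlx6). Both are shorter than the reads of 100 bases, so that no full read fits 2 Dlx genes without a mismatch. A search for shared windows of 100 bases across all transcripts found 1 case, in which 239 of the 5715 windows of Dlx1 (4.18%) are also in Dlx1as, on the opposite strand. The library protocol was strand-specific but whether counting used the strand is not given in the sources used here, so reads in these windows cannot be assigned to Dlx1 or Dlx1as with certainty. Whether a read that fits several transcripts of a gene was counted more than once is not given either.

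The unit is the normalized read, which is the number of reads of a transcript divided by a size factor of its library by the authors. Each value was a whole multiple of the value of 1 read, and the recovered reads summed to 9280660 (wild type) and 9466154 (inversion). Transcripts were summed to genes and log2 ratios of inversion over wild type were taken on the log2(value + 1) scale and are therefore too small for genes with few reads. Intervals are exact 95% intervals of the reads (Poisson for a level, Clopper-Pearson for a ratio or share), which cover counting error only and compare the 2 libraries, not the genotypes. A filter on low values, a mean of 10 normalized reads or more over both libraries, kept 16756 genes including all 6 Dlx genes. Over these genes the median log2 ratio was -0.02 and 46.6% of genes were above 0. The tissue genes were present in both libraries, with 1684 and 1935 normalized reads of Tbx5 (forelimb), 1098 and 1193 of Hoxa13 (distal limb) and 44.5 and 28.6 of Pitx1, a hindlimb gene. Tbx4, which is better known from the hindlimb, had 435 and 389 normalized reads. Hoxd13, the HoxD gene whose regulatory landscape the inversion splits, went from 2292 to 1503 normalized reads (log2 ratio -0.61), and the rearrangement itself cannot be read from these values. The pools also differed in embryo sex, with 2640 and 12.8 normalized reads of Xist, the RNA of the inactive X chromosome, and 836 and 2785 over the Y-linked genes Ddx3y, Eif2s3y, Kdm5d and Uty, so that sex and genotype cannot be told apart.

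In the distal forelimb with the inversion, Dlx1 and Dlx2 were more than 3-fold higher than in wild type, while Dlx3, Dlx4 and Dlx5 had intervals that include equal levels and Dlx6 was lower. The Dlx1/Dlx2 pair went from 439 to 1579 normalized reads, the Dlx3/Dlx4 pair from 461 to 429, and the Dlx5/Dlx6 pair from 618 to 483. Of the 6 genes, 2 were higher by 2-fold or more, where 3.99% of all genes tested were, and 0 were lower by as much, where 0.483% of all genes were. By an exact two-sided binomial test of the reads of the 2 libraries with Benjamini-Hochberg adjustment over all genes tested, 2 Dlx genes (Dlx1 and Dlx2) were called higher and 1 (Dlx6) lower, where 12.3% of all genes were called higher and 7.87% lower. In bulk tissue, fewer cells of a type and less RNA per cell cannot be told apart.

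**Figure D1:**
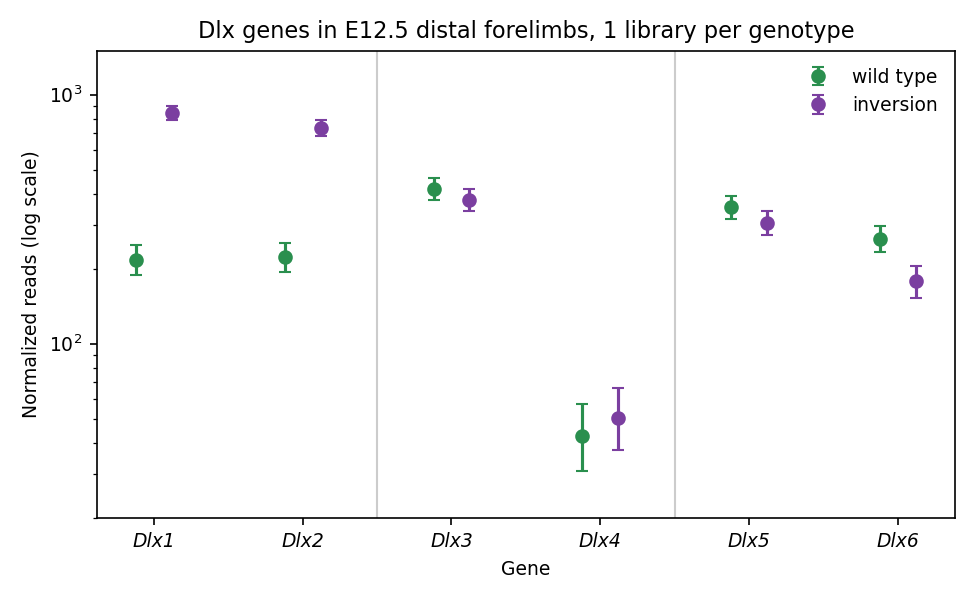
Normalized reads (log axis) of the 6 Dlx genes in the wild-type (green) and the inversion library (purple), with 1 point per library and exact 95% Poisson intervals as bars. The points of Dlx1 and Dlx2 stand far apart, from 217 to 845 and from 223 to 734 normalized reads, those of Dlx6 are closer (264 and 178), and the bars of Dlx3, Dlx4 and Dlx5 overlap.

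Dlx1 lies on chromosome 2, the chromosome that carries the inversion, at positions 71528113 to 71533981 on the plus strand (GRCm38). It had 214 reads in wild type and 856 with the inversion, or 217 normalized reads (interval 189 to 248) and 845 (790 to 904). The intervals were far apart, with a log2 ratio of 1.96 (1.75 to 2.19), or 3.90-fold. The ratio stood at rank 125 from the top of the 16756 genes. Its partner Dlx2, at 71543408 to 71546754 on the minus strand, had 220 and 743 reads, or 223 normalized reads (194 to 254) and 734 (682 to 788), with a log2 ratio of 1.72 (1.5 to 1.94) and rank 193. Most of the genes ranked above them had a mean under 100 normalized reads. Of the 11831 genes at or over this level, 9 had a higher ratio than Dlx1 and 23 a higher ratio than Dlx2.

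The ratios of Dlx1 and Dlx2 differed by 0.24 on the log2 scale, and the exact interval of this difference, -0.07 to 0.56, includes 0. Dlx1 accordingly made up 49.3% of the pair's reads in wild type (44.5 to 54.1%) and 53.5% in the inversion (51.1 to 56.0%). Both genes were thus higher by amounts that could not be told apart at this depth, and the counts allow a difference between them of up to 0.56.

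Dlx1 is listed with 6 transcripts, and each of them had more reads in the inversion library. The transcript with most reads, ENSMUST00000145088, is annotated as a retained intron and had 85 and 309 reads. The longest coding transcript ENSMUST00000037119 had 63 and 249. The other coding transcripts, ENSMUST00000152711 and ENSMUST00000126400, had 12 and 61 and 8 and 44 reads. The remaining forms followed the same direction, with 24 and 97 reads for the retained intron ENSMUST00000172629 and 22 and 96 for ENSMUST00000145444, a transcript annotated as a target of nonsense-mediated decay. The log2 ratios of the 6 transcripts ranged from 1.81 to 2.29, and their intervals all overlap. Coding transcripts held 38.8% of the Dlx1 reads in wild type (32.2 to 45.7%) and 41.4% in the inversion (38.0 to 44.7%). The share of reads given to coding forms was thus close in both libraries, while the level of the gene differed almost 4-fold. For Dlx2, both forms were likewise higher. Its coding transcript ENSMUST00000024159 had 205 and 687 reads (log2 ratio 1.70), and its retained intron form ENSMUST00000134249 had 15 and 56 (1.80). How reads that fit several forms were counted is not given, so the shares of the forms do not measure the make-up of the RNA.

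As Dlx1 and Dlx2 stood apart from the family, the DNA ahead of the start of Dlx2 is shown, the member for which a promoter window without transcribed bases was at hand. It covers the 250 bases chr2:71546755-71547004 on the minus strand (RefSeq, GRCm38.p6), and capitals mark matches to the motifs searched.
Dlx2: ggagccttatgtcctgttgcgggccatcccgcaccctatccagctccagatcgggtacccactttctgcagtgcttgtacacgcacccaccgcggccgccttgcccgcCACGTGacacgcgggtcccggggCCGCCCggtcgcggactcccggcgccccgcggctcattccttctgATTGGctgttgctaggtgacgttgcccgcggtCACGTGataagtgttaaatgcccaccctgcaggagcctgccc

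The window holds 24 CpG dinucleotides, where the median of 32851 mouse promoters was 6 and 88.0% had fewer, and its GC content was 66.4% against a median of 52.4%. On both strands, CACGTG (1 form of the E-box) was found 2 times, and 6.02% of all promoters hold it at least 1 time. Most promoters have fewer CpG than this window and CACGTG itself holds a CpG, so this is not a share of like promoters. CCAAT was found 1 time, on the other strand as ATTGG (33.8% of promoters), and GGGCGG (the GC box) 1 time, on the other strand as CCGCCC (32.7%). TATAAA was not found, as in most promoters (12.4% hold it), and none of the matches overlaps another. A match describes the letters of this window only.

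Dlx3, at positions 95120119 to 95125296 of chromosome 11, is listed with a single, coding transcript. It had 413 and 383 reads, or 418 (379 to 461) and 378 (341 to 418) normalized reads, a log2 ratio of -0.14 (-0.35 to 0.06). The intervals overlap, and at this depth no difference could be detected. Dlx4, at 95140447 to 95146263, had the fewest reads of the family, 42 and 51, or 42.5 normalized reads (30.7 to 57.5) and 50.4 (37.5 to 66.2). Its log2 ratio of 0.24 had an interval from -0.37 to 0.87, which allows a level almost 2-fold higher as well as a lower one. The coding transcript ENSMUST00000021241 had 30 and 32 reads, and the processed transcript ENSMUST00000146838 had 12 and 19. Dlx3 made up 90.8% of the reads of this pair in wild type (87.7 to 93.3%) and 88.2% in the inversion (84.8 to 91.1%), so the sum of the pair, with a log2 ratio of -0.10 (-0.30 to 0.09), is mostly that of Dlx3.

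Dlx5, at positions 6877805 to 6882085 of chromosome 6, had 349 and 309 reads, or 353 (317 to 392) and 305 (272 to 341) normalized reads. The log2 ratio of -0.21 (-0.44 to 0.01) includes 0 at its edge. Dlx6, at 6863334 to 6868568, had 261 and 180 reads, or 264 normalized reads (233 to 298) and 178 (153 to 206). Here the intervals do not overlap, and the log2 ratio of -0.57 (-0.85 to -0.29) corresponds to 0.673 of the wild-type level. The ratio of Dlx5 exceeded that of Dlx6 by 0.36, with an interval (-0.002 to 0.72) that just includes 0, and Dlx5 made up 57.2% of the reads of the pair in wild type (53.2 to 61.2%) and 63.2% in the inversion (58.7 to 67.5%). The pair as a whole had a log2 ratio of -0.35 (-0.53 to -0.18).

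At the level of single transcripts, both coding forms of Dlx5 were close to the gene, with 191 and 172 reads for ENSMUST00000052609 and 158 and 137 for ENSMUST00000142635. For Dlx6, ENSMUST00000160937 had 171 and 112 reads (log2 ratio -0.64, -1.0 to -0.29) and ENSMUST00000031768 had 66 and 39 (-0.78, -1.40 to -0.20), both lower in the inversion beyond counting error. The retained intron ENSMUST00000172943 had 24 and 20 reads. The coding form ENSMUST00000171311 went the other way, with 0 reads in the wild-type and 9 in the mutant library, which is at least 2.93-fold higher against a floor of 3 reads in the wild-type library. This bound takes the 9 reads as they are, and the exact interval of the log2 ratio, which counts their error too, starts at 0.94. It was the only one of the 17 Dlx transcripts without reads in a library, and its 9 reads were 5.0% of the Dlx6 reads in the inversion library.

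**Figure D2:**
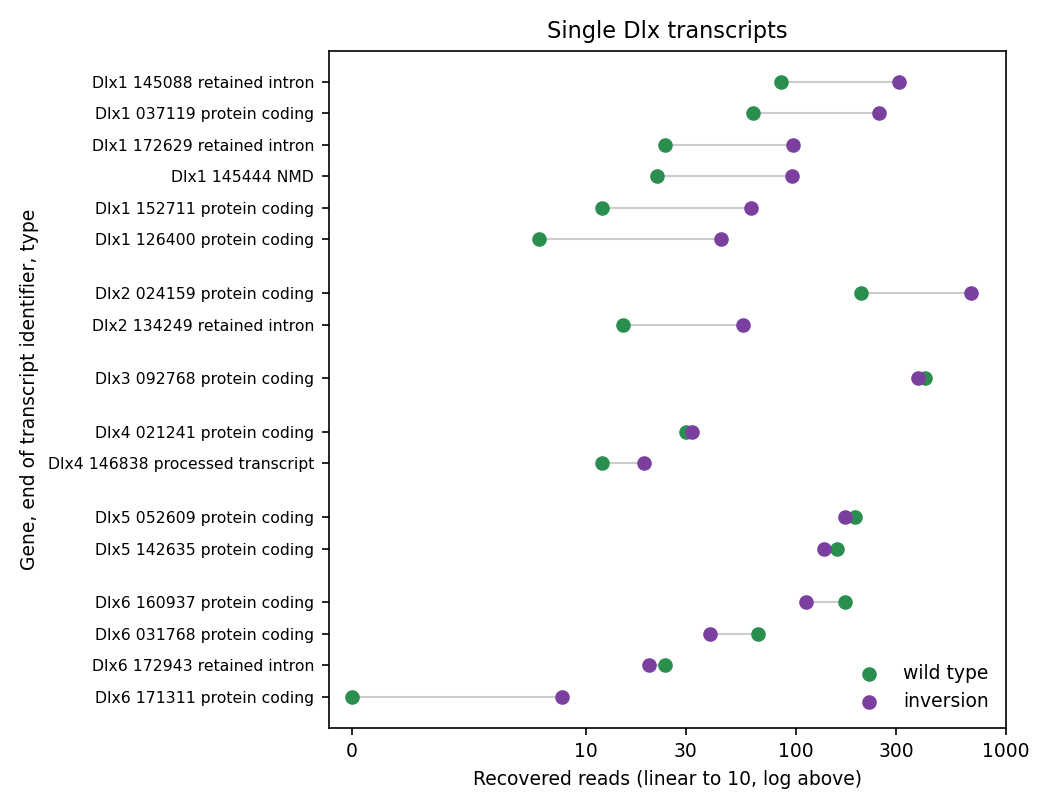
Recovered reads (axis linear to 10 and logarithmic above) of each of the 17 Dlx transcripts in the wild-type (green) and the inversion library (purple), joined by a line; labels give the gene, the last digits of the transcript identifier and the type, with NMD for nonsense-mediated decay. All 6 Dlx1 and both Dlx2 transcripts lie to the right in the inversion, while the transcripts of Dlx3, Dlx4 and Dlx5 lie close together and those of Dlx6 go both ways.

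Between the libraries, the Dlx1/Dlx2 pair therefore stood apart from the other pairs. The log2 ratio of Dlx1/Dlx2 exceeded that of Dlx3/Dlx4 by 1.95 (1.70 to 2.20) and that of Dlx5/Dlx6 by 2.20 (1.97 to 2.43). These differences come from the reads of the genes within each library and need no scaling between libraries. The Dlx3/Dlx4 and Dlx5/Dlx6 pairs differed from each other by 0.25 (-0.01 to 0.51), which includes 0. Within the 3 pairs, no difference between partners left out 0.

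The shares of the pairs in the family differed with these ratios. The sum of all 6 genes was 1518 normalized reads in the wild-type and 2491 in the mutant library (log2 ratio 0.71, 0.62 to 0.81), whereas the 4 genes outside the Dlx1/Dlx2 pair went from 1078 to 912 (-0.24, -0.37 to -0.11). Dlx1/Dlx2 held 29.0% of all Dlx reads in the wild-type library (26.7 to 31.3%) and 63.4% in the mutant library (61.5 to 65.3%). The shares of the others were accordingly smaller, 30.4% and 17.2% for Dlx3/Dlx4 and 40.7% and 19.4% for Dlx5/Dlx6.

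**Figure D3:**
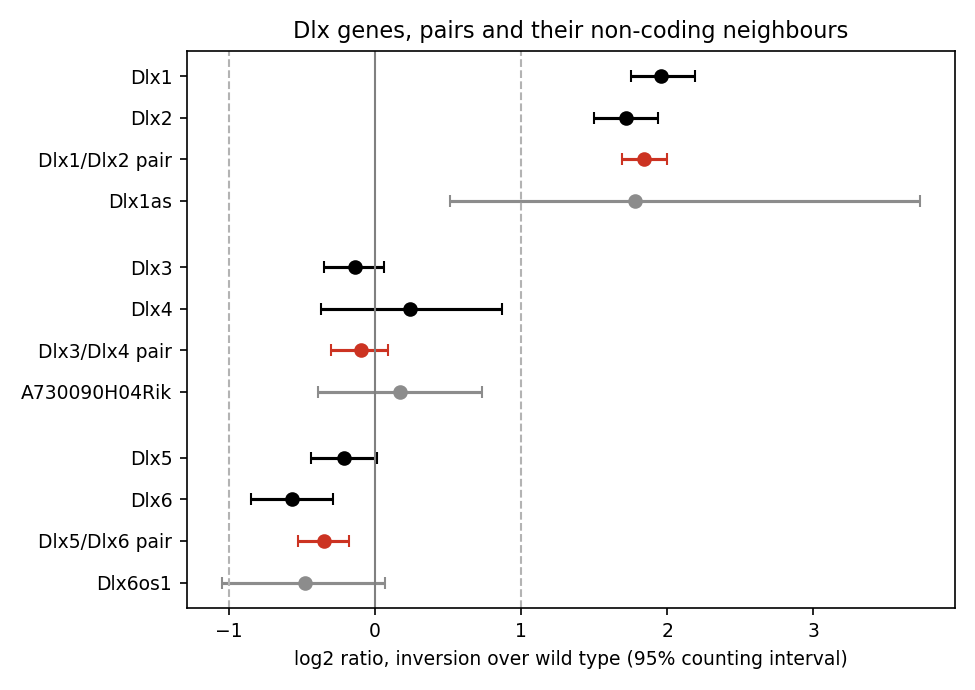
Log2 ratio of inversion over wild type with 95% counting intervals for the 6 Dlx genes (black), the 3 pairs (red) and the non-coding genes at the loci (grey); dashed lines mark 2-fold. Dlx1, Dlx2 and their pair (1.84) lie beyond the line of 2-fold higher with their whole intervals, and the other pairs lie at -0.10 and -0.35.

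Between genes, levels were compared as normalized reads per kb, each transcript divided by its GENCODE length. In wild type Dlx5 (257 per kb) and Dlx6 (252) were highest and their intervals overlap, followed by Dlx3 (160), Dlx1 (126), Dlx2 (108) and Dlx4 (20.9). Of these neighbours in the order, Dlx1 and Dlx2 also overlap. The others stand apart, though Dlx1 (110 to 144) and Dlx3 (145 to 177) only just. Each interval per kb scales the Poisson interval of all reads of a gene. It leaves out that reads of short transcripts weigh more, and is too narrow for genes with transcripts of unlike length. Whether Dlx1 and Dlx3 differ per kb in wild type could therefore not be told. In the inversion the order began with Dlx1 (527 per kb) and Dlx2 (363), followed by Dlx5 (222), Dlx6 (173), Dlx3 (145) and Dlx4 (25.6), where Dlx5 and Dlx6, and Dlx6 and Dlx3, overlap. The pair with the highest level per kb was thus Dlx5/Dlx6 in wild type and Dlx1/Dlx2 in the inversion. As Dlx1 and Dlx6 are listed with short partial transcripts, their levels per kb depend on how reads were given to transcripts.

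Each pair has non-coding genes in its vicinity, which overlap a coding partner on the opposite strand or lie between the partners. Dlx1as, antisense to Dlx1 at 71516454 to 71537891 of chromosome 2, had 5 and 20 reads, a log2 ratio of 1.78 with a wide interval (0.51 to 3.73). Dlx6os1, which in its longer annotated forms is known as Evf2 and acts at the Dlx5/Dlx6 locus in the forebrain, had 67 and 49 reads (-0.48, -1.05 to 0.07). A730090H04Rik, named Dlx4os in GENCODE M21, had 52 and 60 reads (0.17, -0.39 to 0.73). Of the 3, only Dlx1as had an interval that left out 0, and it passed the filter only through the inversion library. The reads of Dlx1as that overlap Dlx1 cannot be told apart with certainty.

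The genes whose start lies within 250 kb of a pair were taken from GENCODE M21. Around Dlx1/Dlx2, which spans 18.6 kb, 5 of 7 such genes passed the filter and their median was 0.30 on the log2 scale. The 5 include Dlx1as, which passed only through the inversion library, so this median is no support for a change around the pair. Metap1d, a mitochondrial methionine aminopeptidase whose end overlaps the span of Dlx1as, had 206 and 449 reads, a log2 ratio of 1.08 (0.85 to 1.33). With Dlx1as it was the only gene of this window beyond 2-fold, where 3.99% of all genes tested were higher by as much. The remaining genes were closer to wild type. Itga6, the integrin gene named in the allele, starts 199 kb beyond the pair and had 1196 and 1509 reads (0.30, 0.19 to 0.41). On the other side, the histone acetyltransferase Hat1 had 1144 and 999 (-0.23, -0.36 to -0.11) and the mitochondrial carrier Slc25a12 697 and 727 (0.02, -0.13 to 0.18). The ratios of Dlx1 and Dlx2 were thus above those of Metap1d, Itga6, Hat1 and Slc25a12, with intervals that do not overlap theirs. Without the pseudocount, the ratio of normalized reads was 3.91 for Dlx1as and 3.90 for Dlx1, and Dlx1as, with 5.06 normalized reads in wild type, passed the filter only through the inversion library.

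Around Dlx3/Dlx4 (26.1 kb), 10 of 16 genes passed and the median log2 ratio was 0.01. The largest values were those of Sgca, a sarcoglycan of muscle with 12 and 26 reads (1.02, 0.04 to 2.20), and Col1a1, the collagen of bone and connective tissue (0.70, 0.64 to 0.76). The others that passed, Ppp1r9b, Samd14, Pdk2, Itga3, Myst2, Fam117a, Slc35b1 and A730090H04Rik, lay between -0.12 and 0.17. Within 250 kb of Dlx5/Dlx6 (18.8 kb) there were 2 genes, Dlx6os1 and Acn9, the latter with 184 and 206 reads (0.13, -0.17 to 0.42).

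**Figure D4:**
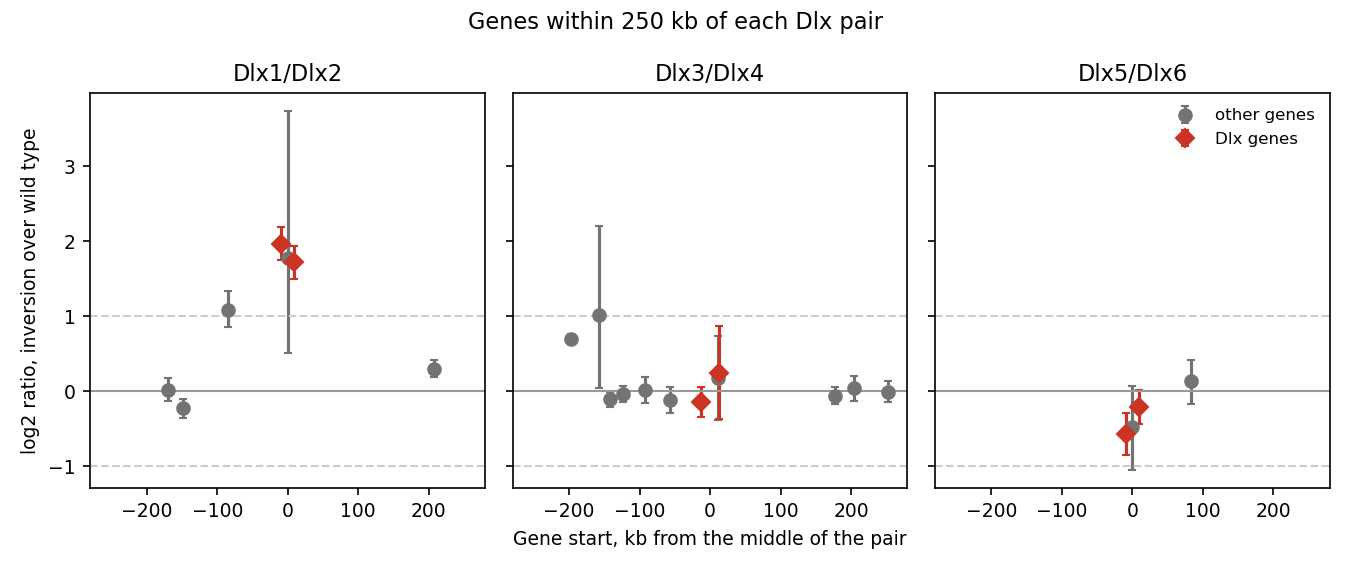
Log2 ratio of inversion over wild type, with 95% counting intervals, against the distance in kb of a gene's start from the middle of each pair, for the Dlx genes (red diamonds, likewise placed at their start) and the other genes within 250 kb that passed the filter (grey). In the left panel Dlx1, Dlx2, Dlx1as and Metap1d lie above 1, and in the other panels Sgca alone does.

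Several groups of genes that act with Dlx genes or mark their tissues were described beside them. The first holds genes of the AER and of split hand/foot malformation. Of 17 genes, 14 passed the filter. Their median log2 ratio was -0.07, beside -0.02 for all genes, and 0 of them differed by 2-fold or more in either direction. Of all genes tested, 3.99% were higher and 0.483% lower by as much, and 14 genes are too few to set 0 apart from these shares. Sp9, a zinc finger factor of the ridge, had 213 and 361 reads (0.72, 0.48 to 0.98), and En1, a homeobox gene of the ventral ectoderm, 132 and 171 (0.34). The lowest values were those of Bhlha9, linked to split hand/foot with long bone deficiency, with 142 and 84 reads (-0.79, -1.20 to -0.39), of Shfm1, a gene of the split hand/foot locus that also holds Dlx5 and Dlx6, with 876 and 668 (-0.43, -0.57 to -0.28), and of Rspo2, a WNT agonist, with 124 and 96 (-0.40, -0.81 to -0.01). Intervals thus lay below 0 for Bhlha9, Shfm1 and Rspo2, and above 0 for Sp9, En1 (0.0013 to 0.68) and Jag2 (0.01 to 0.35). The list therefore held differences in both directions. These intervals are not adjusted for the number of genes. By the adjusted binomial test, 12.3% of all genes tested were called higher and 7.87% lower.

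Most of the signals and other factors of the ridge had intervals that include equal levels. Fgf8, the main FGF of the AER, had 64 and 58 reads (-0.18, -0.72 to 0.36) and Fgf9 218 and 213 (-0.07). Wnt3 had 295 and 273 reads (-0.15), Wnt10b 133 and 129 (-0.08), while the Notch ligand Jag2 was slightly higher, with 546 and 633 (0.18, 0.01 to 0.35). Of the transcription factors, Trp63, which is needed for stratified ectoderm, had 947 and 900 reads (-0.11), Sp8 185 and 188 (-0.01), and Msx2 835 and 821 (-0.06). The F-box gene Fbxw4 had 322 and 342 reads (0.05). Fgf4, Fgf17 and Sp6 had too few reads for the filter.

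The markers of surface ectoderm, the tissue in which Dlx genes of the limb bud are best known, lay lower as a group. All 13 passed the filter and all 13 had a log2 ratio below 0, where 46.6% of all genes tested were above 0. Some of the 13 had intervals that include 0, as had Dsp (-0.15 to 0.05). The markers were chosen with earlier results of these data known. Their median was -0.23 with a range from -0.38 (Grhl3) to -0.05 (Dsp). None was 2-fold lower, as were only 0.483% of all genes tested. Their reads summed to 11028 and 9976, a log2 ratio of -0.18 of the summed normalized reads. Epcam had 531 and 426 reads (-0.35, -0.54 to -0.17). The ratios of Dlx3 (-0.14) and Dlx5 (-0.21) lie within the range of these markers, that of Dlx6 (-0.57) lies below it, that of Dlx4 (0.24) lies above it with an interval that reaches into it, and those of Dlx1 and Dlx2 lie far above it. The part of the ectoderm markers in the values of the Dlx genes was not tested.

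Of 13 skeletal genes known to act downstream of Dlx5 and Dlx6 or in the same cells, 11 had a value and 10 passed, with a median log2 ratio of 0.25. The highest were Sp7 and Runx2, transcription factors of bone, with 76 and 187 reads (1.25, 0.87 to 1.67) and 263 and 508 (0.91, 0.70 to 1.13). The lowest were Col10a1, the collagen of hypertrophic cartilage, with 80 and 58 reads (-0.49, -1.01 to 0.01), and the signal Ihh, with 164 and 126 (-0.41, -0.76 to -0.07). Sp7 was the only one beyond 2-fold, where 3.99% of all genes tested were higher by as much. The list held values in both directions (6 above 0 and 4 below), and several of its intervals include 0. Dlx6 was below 0, while the interval of Dlx5 (-0.44 to 0.01) includes 0.

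**Figure D5:**
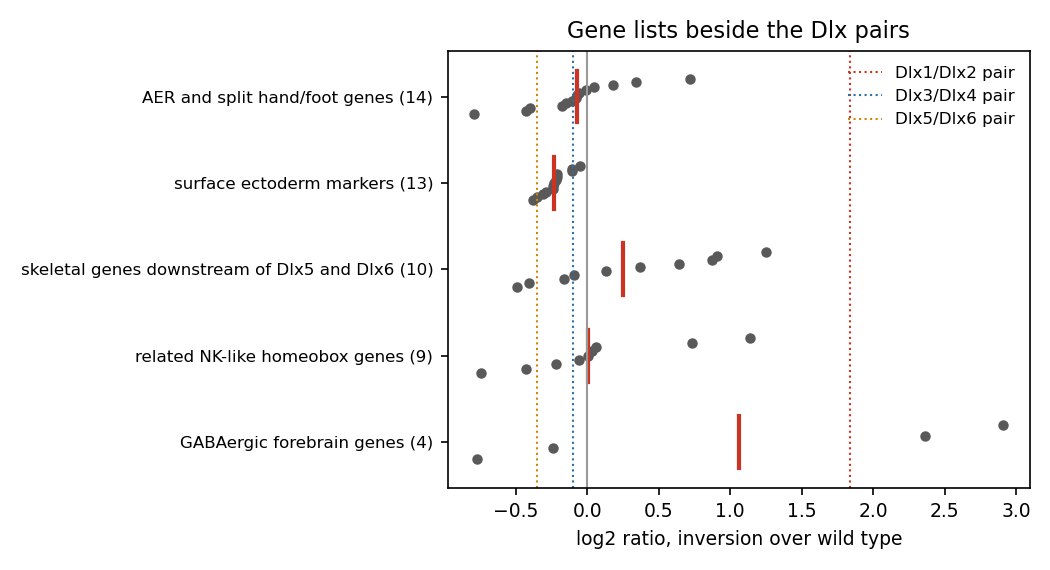
Log2 ratio of inversion over wild type of each gene that passed the filter (grey points, counts in parentheses) in 5 gene lists, with list medians as red bars and the 3 Dlx pairs as dotted lines. The surface ectoderm markers lie within -0.38 to -0.05, and the 2 GABAergic forebrain genes beyond the Dlx1/Dlx2 line are Lhx8 and Sst, which passed the filter only through the inversion library.

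With values from 2 libraries, a pattern across samples is a single ratio. Of the genes at or over a mean of 100 normalized reads, the 3 whose ratio was nearest to that of the Dlx1/Dlx2 pair (1.84) were Ppia, a cyclophilin, with 53 and 197 reads (1.84), Uty, a Y-linked gene, with 140 and 516 (1.84), and Acrbp, a proacrosin-binding protein, with 48 and 180 (1.85). Likeness of a single ratio over 2 libraries is a description, and Uty is one of the genes that differ with the sex of the embryos. Ppia and Acrbp had 53.7 and 48.6 normalized reads in wild type. They reached a mean of 100 only through the inversion library, so their ratios had to be high and are no support for a likeness.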

How the data were processed

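Strand-specific, poly(A)-selected RNA-seq (100-base single-end reads) of E12.5 distal forelimbs was analysed, with 1 library per genotype and no replicate. The authors mapped the reads to NCBIM37 (mm9) and used the HTSstation pipeline to assign them to transcripts, and Bowtie2 is among the submitters' processing notes. The deposited signal of a transcript is its reads over a size factor set by the authors, where 0.5 stands for no reads and was read as 0, whereas the methods name RPKM per gene. Columns of the authors' own comparison (linear and log2 fold change, raw and adjusted p-values) were not used. The wild-type sample is titled wtFL, while its values are named wtDFL and the inversion sample is titled invDFL. The wild-type values were assigned to this sample because it is the only wild-type one.

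Of the values above 0.5, 100% gave whole reads (tolerance 0.0051 normalized reads). The wild-type library held 9280660 reads and the inversion library 9466154. Transcripts of the same symbol and chromosome were summed to genes, and the log2 ratio used a pseudocount of 1, a filter at a mean of 10 normalized reads, and a threshold of 2-fold. An exact two-sided binomial test of the recovered reads (Benjamini-Hochberg adjustment at 0.05) called 2068 genes higher and 1318 lower, and compares 2 libraries, not genotypes. Differences between pairs or partners are exact conditional log2 odds ratios. Intervals cover counting error only.

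The genes named are the Dlx genes and their transcripts, the non-coding genes at the loci, genes with a start within 250 kb of a pair, the AER and split hand/foot genes that passed, from each other list at most the 2 highest and 2 lowest, the checks of tissue and sex, and the 3 genes nearest in ratio. Gad1 and Gad2 of the forebrain list were chosen after their values were seen, and 1 gene of that list was left out and is not reported here. Members and lists were chosen with earlier results of these data known. Positions, lengths and transcript types come from GENCODE M21 on GRCm38, matched by identifier for 88.1% of transcripts and all 17 of the Dlx genes, and no coordinate was converted between builds. RefSeq promoter entries were found for 2 of the 6 genes. The steps were tested on simulated data. Alternatives were other scalings, pseudocounts, filters, thresholds and ways of summing transcripts. Scripts ran in Python 3.11.15 with scipy 1.17.1, pandas 2.3.3, numpy 2.4.6 and, for plots, matplotlib 3.10.9.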

Additional observations from a re-analysis of the deposited data

How the results depend on the processing

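The results on the Dlx genes moved little with the processing. Over 7 values each, the log2 ratio lay between 1.74 and 1.90 for Dlx1/Dlx2, between -0.13 and -0.05 for Dlx3/Dlx4 and between -0.38 and -0.30 for Dlx5/Dlx6, and all 36 values of single Dlx genes moved by less than their counting interval. List medians near 0 or over few genes were less stable. The median of the NK-like list (0.0024) was -0.0220 with protein-coding transcripts only, -0.0192 without a filter and -0.0290 with a mean of at least 100, that of the GABAergic list (1.06, which rests on 2 genes that passed only through the inversion library) was -0.24 with protein-coding transcripts only, and that of the skeletal list (0.25) was 0.62 with a mean of at least 100, a filter that left no GABAergic gene. Over all genes, 668 at least 2-fold higher and 81 lower became 412 higher with protein-coding transcripts, 1992 and 1089 without a filter, 1577 and 341 at 1.5-fold, 113 and 13 at 4-fold, 139 and 12 with the filter at 100, and 2068 and 1318 by the binomial test. The share of higher genes among those called was 89.2%, but 78.9% with protein-coding transcripts, 64.7% without a filter and 61.1% by the binomial test. No paired analysis was possible because each genotype has 1 library.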

Other observations

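Of the 12 genes listed for GABAergic neurons of the forebrain, where Dlx1 and Dlx2 are best known, 9 had a value and 4 passed the filter. Lhx8, a LIM homeobox gene of the ventral forebrain that is also expressed in the face, had 5 and 45 reads (log2 ratio 2.91, 95% interval 1.81 to 4.82), and the neuropeptide gene Sst had 7 and 41 (2.36, 1.34 to 3.92). Both were under 10 normalized reads in wild type (5.06 and 7.09) and passed only through the inversion library, so that they had to differ, and neither their ratios nor a median that holds them is support for a change of the list. Lhx6 had 51 and 44 reads (-0.24, -0.86 to 0.36) and Npy 14 and 8 (-0.77, -2.30 to 0.51). Npy was under 10 normalized reads in the inversion library (7.90) and passed only through the wild-type library. Its ratio below 0 is therefore no support for a change either. The genes that define the neurons were at or near 0 in both libraries, with 4 and 6 reads of Gad1 and 1 and 0 of Gad2. Beside them, Dlx1 and Dlx2 had 214 and 220 reads in wild type alone. The list's summed reads went from 89 to 159. This sum holds the 5 and 45 reads of Lhx8 and the 7 and 41 of Sst. It is therefore no support for a change of the list either.

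Among the NK-like homeobox genes, the relatives of the Dlx family, 9 of 18 passed the filter, with 5 above 0 and 4 below and a median log2 ratio of 0.0024. Nkx3-2, a factor of early cartilage, had 79 and 180 reads (1.14, 0.76 to 1.55). It was the only one at least 2-fold higher, where 3.99% of all genes tested were. Lbx1, a marker of migrating muscle precursors, had 42 and 72 reads (0.73, 0.17 to 1.33), Barx2 177 and 108 (-0.74, -1.11 to -0.40) and Emx1 24 and 18 (-0.43, -1.42 to 0.49). The ratios of Dlx1 and Dlx2 were above that of each of these 9 genes.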
